A study of Mus musculus with 4 samples.

Results

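Mitochondrial ribosomal proteins were followed in mouse 2-cell embryos cultured with or without dimethyl sulfoxide (DMSO), a solvent and cryoprotectant. The genes were chosen by name: every row of the deposited expression table whose Ensembl identifier belonged to a protein-coding gene named Mrpl or Mrps followed by a digit. This gave 75 of the 30049 genes in the table, 46 of the large subunit (Mrpl) and 29 of the small subunit (Mrps). GENCODE M21 lists 78 such genes, and the remaining 3, Mrpl9, Mrpl33 and Mrpl52, were not analysed here.

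The embryos were wild-type F2 embryos from crosses of BDF1 mice, which are first-generation hybrids of C57BL/6 and DBA/2, and the mice were 8 to 12 weeks old. Zygotes were taken 18 h after human chorionic gonadotropin, by the sample labels, and kept for 24 h in KSOM, a simple medium for preimplantation embryos. Control embryos received KSOM alone and DMSO embryos received KSOM with 2% DMSO. Each group had 2 libraries, numbered 1 and 2, and 50 embryos at the 2-cell stage were collected per group. Whether the 2 libraries of a group came from separate cultures is not stated, so p-values measure only the spread between these libraries, which may be technical. Expression was given as TPM, a transcript level divided by transcript length and set to a common total per library, which keeps no sequencing depth. The listed genes summed to 768174 and 780527 TPM in the control libraries and to 772487 and 799166 TPM in the DMSO libraries.

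Mitochondria translate their own few messenger RNAs, all for subunits of the respiratory chain and ATP synthase, on a ribosome of their own. Its RNAs come from the mitochondrial genome, but its proteins are all encoded in the nucleus, made in the cytosol and imported. The large subunit joins amino acids and the small subunit reads the messenger RNA. Some of the proteins descend from bacterial ribosomal proteins, and others are found only in mitochondrial ribosomes. The early embryo inherits its mitochondria from the oocyte.

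Before the results, the libraries were compared on the markers of the embryo and of other cells. Of 6 genes marking the 2-cell stage, Zfp352 was at 142.5 and 89.0 TPM in the control and 550.6 and 373.2 TPM in the DMSO libraries, and it and Usp17lc, which shares most of its sequence with close relatives, were called higher. The summed level of these 6 genes was 383 and 271 TPM in control and 909 and 647 TPM in DMSO, most of the DMSO sum from Zfp352. The groups overlapped for 3 of the 6 genes, among them Obox3, at 118 and 93.0 TPM against 115 and 91.5 TPM. Of 8 oocyte and maternal genes, Bmp15, an oocyte growth factor, was called higher, with 102 and 56.0 TPM in control against 544 and 285 TPM in DMSO, and the 8 genes, with Bmp15 the most abundant, summed to 218 and 129 TPM against 758 and 428 TPM. Zp3 of this list was lower in both DMSO libraries, at 1.56 and 2.35 against 1.44 and 0.956 TPM, and Padi6 was at 0.860 and 3.32 against 0 and 1.65 TPM, and neither was called. The defining maternal gene Nlrp5 was near 0 in all libraries.

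Markers of other cells were mostly near 0, with 1 or 2 exceptions in a list. The 10 cumulus and granulosa cell genes summed to 39.6 and 31.4 TPM in control and to 12.8 and 19.6 TPM in DMSO. Most of it was Amhr2, at 36.8 and 29.6 against 8.29 and 16.5 TPM, which was called lower. The steroid synthesis genes of this list went the other way at low levels, Cyp19a1 at 0.422 and 0.494 against 1.25 and 1.08 TPM and Cyp11a1 at 0.781 and 0.802 against 2.10 and 0.958 TPM, while Lhcgr and Inhba were at 0 and Fshr was at or near 0 in all libraries. The 4 sperm genes summed to 2.84 and 3.38 TPM against 13.4 and 8.48 TPM, most of it Prm2, and Tnp2 was at 0. Prm2 was called higher, and so was Tnp1, at 0.281 and 0 against 2.08 and 1.69 TPM. Tnp1 reached a mean of 1 TPM only through the DMSO group. The 4 blood genes summed to 4.08 and 1.60 TPM against 3.8 and 4.52 TPM, most of it Hba-a1, and Hbb-bt was at 0. The 13 messenger RNAs of the mitochondrial genome held 10.8% and 12.4% of the summed TPM of the listed genes in control. In DMSO they held 15.3% and 21.7%. Apart from the blood genes, these sums and shares differed between the groups without overlap, and their part in the results was not tested. In pooled embryos, fewer cells and less RNA per cell cannot be told apart.

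In the DMSO embryos, many mitochondrial ribosomal protein genes of both subunits were lower. None was called higher in the main fit, which had no replicate block. Levels were compared on log2(TPM + 1) with limma over the 12038 genes that averaged 1 TPM or more, and a gene was called at a Benjamini-Hochberg adjusted p under 0.05. On this scale the change of a weakly expressed gene comes out too small. Of the 75 genes, 73 were tested, and Mrps9 and Mrps5 lay under the filter, Mrps9 at 0.522 and 0.787 TPM in control and 0.164 and 0.243 TPM in DMSO, and Mrps5 at 0.737 and 1.68 against 1.22 and 0.168 TPM. Mrpl23, at 8.31 and 7.92 TPM in control, and Mrps34, at 1.41 and 2.94 TPM, were listed at 0 in both DMSO libraries, so they passed the filter only through the control group and had to differ. Mrpl1, which was not called, was at 2.26 and 4.23 TPM in control and averaged 0.923 TPM in DMSO, and it too passed only through the controls.

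Among the 46 large subunit genes, 20 were called lower, Mrpl23 included, and 0 higher, and among the 27 small subunit genes tested, 12 were called lower, Mrps34 included, and 0 higher. Over all genes tested, 14.1% were called lower and 6.42% higher. At an unadjusted p under 0.05 stood 32 large and 18 small subunit genes, the called ones among them, against 4835 of all genes (40.2%). These calls rested on all 4 libraries together. None was kept without control 1, without control 2 or without DMSO 1, and part of them was kept without DMSO 2. Such fits leave a single library in 1 group. With 1 library left out, the large subunit median log2 fold change ran from -1.12 to -0.93 and the small from -1.06 to -0.92. No gene was called when genes of low level were also tested.

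Both DMSO libraries lay below both control libraries for 38 large and 17 small subunit genes, against 38.7% of all genes tested. Both lay above for 4 large and 5 small subunit genes, against 31.1% of all genes. The groups overlapped for the remaining 9 genes, Mrpl2, Mrpl37, Mrpl53, Mrpl3, Mrps17, Mrps31, Mrps21, Mrps18c and Mrps33.

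The median log2 fold change was -1.02 for the large subunit, with quartiles of -1.56 and -0.50, and -0.94 for the small subunit, with quartiles of -1.5 and 0.14. The median of all genes tested was -0.09, with quartiles of -0.81 and 0.62. Set against the mean of the controls, the large subunit median was -1.12 in DMSO 1 and -0.93 in DMSO 2, and the small subunit median was -1.02 and -0.96. The medians of the subunits differed by -0.074. The difference took the other sign, 0.064 and 0.038, without control 2 or without DMSO 1. The large minus small median of log2(TPM + 1) had an SD of 0.14 between libraries of a group. That SD belongs to levels and does not measure the spread of this difference of fold changes.

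**Figure D1:**
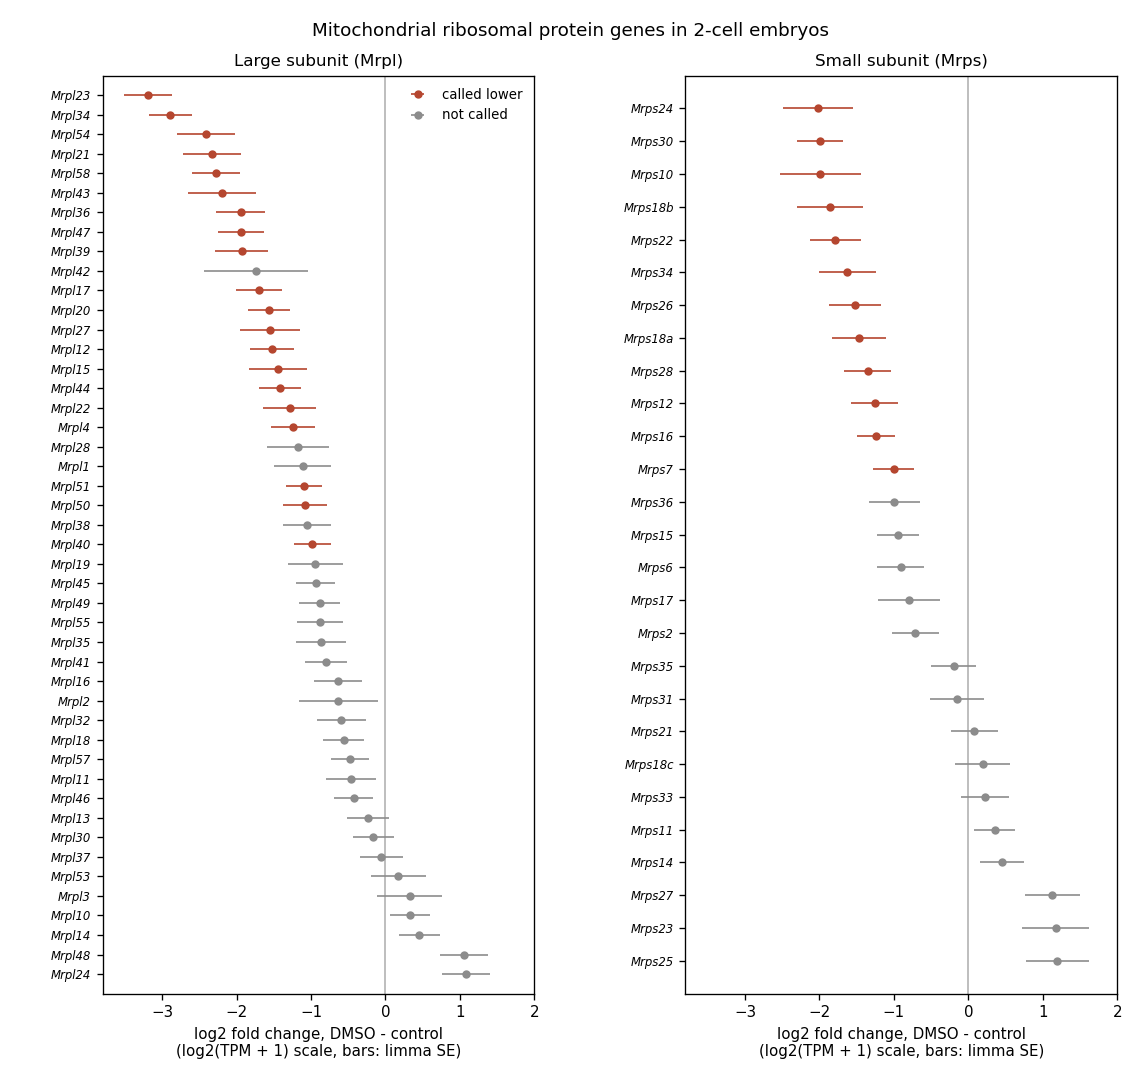
Log2 fold change, DMSO minus control on the log2(TPM + 1) scale (x axis), of each of the 73 genes tested (y axis), with the large subunit on the left and the small subunit on the right. Points are limma estimates, bars are standard errors and red marks the 20 large and 12 small subunit genes called lower, all to the left of 0. Mrpl23 and Mrps34 were listed at 0 in both DMSO libraries, so their positions depend on the pseudocount.

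Of the large subunit, the called genes averaging 5 TPM or more with the lowest log2 fold change were Mrpl34, Mrpl54, Mrpl21, Mrpl58 and Mrpl43. Mrpl34 encodes a small basic protein with a bacterial homologue (ENSMUSG00000034880, chromosome 8, 71464959 to 71465747 on GRCm38). It was at 279.6 and 307.4 TPM in control and at 32.0 and 46.8 TPM in DMSO, so the groups lay far apart. Its log2 fold change was -2.89 (SE 0.28, limma adjusted p = 0.0181), and it ran from -3.16 to -2.62 when 1 library was left out.

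Mrpl54, a protein found only in mitochondrial ribosomes (chromosome 10, 81264713 to 81266934), was at 65.6 and 78.8 TPM in control and at 8.65 and 18.6 TPM in DMSO. The groups did not overlap, although DMSO 1 and DMSO 2 stood apart from each other, and the log2 fold change was -2.41 (SE 0.39, limma adjusted p = 0.0207). Mrpl21, which has a bacterial homologue (chromosome 19, 3282901 to 3292837), was at 93.2 and 157.3 TPM against 17.6 and 30.7 TPM, a log2 fold change of -2.33 (SE 0.39, limma adjusted p = 0.0209). Its groups were also separate, with more spread between the controls than in Mrpl34.

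Mrpl58, also called ICT1, releases peptides from stalled mitochondrial ribosomes as well as being part of the large subunit (chromosome 11, 115403752 to 115412674). It was at 39.8 and 59.0 TPM in control and 10.7 and 7.96 TPM in DMSO, with a log2 fold change of -2.27 (SE 0.33, limma adjusted p = 0.0181). Mrpl43, found only in mitochondrial ribosomes (chromosome 19, 45004829 to 45006442), was at 65.8 and 88.9 TPM against 9.84 and 25.3 TPM, a log2 fold change of -2.20 (SE 0.45, limma adjusted p = 0.0275). Both genes were lower in each DMSO library than in each control library. The Mrpl43 value is uncertain, because 38.5% of its 31-base words also occur in transcripts of other genes, mostly of the overlapping Twnk, the mitochondrial DNA helicase, which was itself called lower with 16.7 and 18.2 TPM against 2.80 and 5.94 TPM.

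The 3 most abundant large subunit genes were Mrpl40, Mrpl34 and Mrpl51, and all 3 were called lower. Mrpl40 (chromosome 16, 18872018 to 18876862) was at 226.9 and 267.9 TPM in control and 118.8 and 130.0 TPM in DMSO, a log2 fold change of -0.98 (SE 0.25, limma adjusted p = 0.0392). Mrpl51 (chromosome 6, 125191801 to 125196269) was at 186.1 and 199.2 TPM against 85.1 and 94.9 TPM, a log2 fold change of -1.09 (SE 0.24, limma adjusted p = 0.0314). In both genes the 2 libraries of each group were close to each other and the groups lay apart, but the call of Mrpl40 was kept under only 5 of 10 alternative settings that used all 4 libraries.

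Mrpl12 and Mrpl44 are large subunit genes with further features. Mrpl12 forms the flexible stalk that contacts translation factors, and its protein has also been found with the mitochondrial RNA polymerase (chromosome 11, 120484613 to 120489065). It was at 139.0 and 148.0 TPM in control and 40.0 and 60.6 TPM in DMSO (log2 fold change -1.52, SE 0.29, limma adjusted p = 0.0245). Mrpl44 carries a fold related to ribonuclease III (chromosome 1, 79776018 to 79781445) and was at 23.9 and 25.4 TPM against 9.28 and 7.95 TPM (log2 fold change -1.42, SE 0.28, limma adjusted p = 0.0259). Neither gene had overlapping groups.

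Of the 3 most abundant small subunit genes, Mrps21, Mrps33 and Mrps7, the last was called. Mrps21 (chromosome 3, 95862634 to 95871519) was at 94.9 and 149.4 TPM in control and 142.4 and 111.5 TPM in DMSO, a log2 fold change of 0.08 (SE 0.31, limma adjusted p = 0.858). Mrps33 (chromosome 6, 39801804 to 39810988) was at 95.2 and 132.3 TPM against 165.1 and 104.3 TPM, a log2 fold change of 0.22 (SE 0.33, limma adjusted p = 0.627). In both genes the groups overlapped, and the sign of the difference changed when control 1 or DMSO 1 was left out.

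Mrps7, a protein of the head of the small subunit with a bacterial homologue (chromosome 11, 115603925 to 115608036), was at 147.6 and 131.4 TPM in control and at 58.3 and 81.6 TPM in DMSO. The groups did not overlap, and the log2 fold change was -1.0 (SE 0.28, limma adjusted p = 0.0488). The call was kept under 3 of 10 alternative settings that used all 4 libraries.

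**Figure D2:**
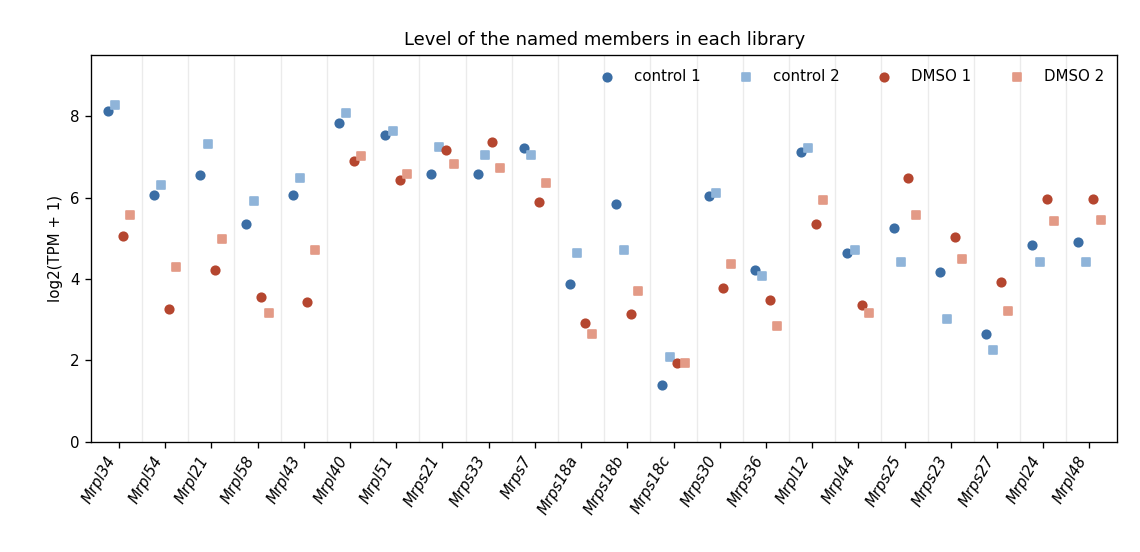
Level on the log2(TPM + 1) scale (y axis) of 22 named mitochondrial ribosomal protein genes (x axis) in each of the 4 libraries, with controls in blue and DMSO in red, circles for library 1 and squares for library 2. Mrpl34 shows the widest gap between groups, Mrps21 and Mrps33 show mixed colours, and the 5 genes at the right have red points above blue ones.

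Some proteins carry a name that differs from their place in the ribosome. Mrps30 and Mrps18a are named for the small subunit but sit in the large subunit, and both were called lower. Mrps30 (chromosome 13, 118378381 to 118387252) was at 64.8 and 67.7 TPM in control and 12.8 and 19.7 TPM in DMSO, a log2 fold change of -1.99 (SE 0.31, limma adjusted p = 0.0188). Mrps18a (chromosome 17, 46110986 to 46128910) was at 13.6 and 24.1 TPM against 6.57 and 5.29 TPM, a log2 fold change of -1.47 (SE 0.37, limma adjusted p = 0.0385).

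The paralogues of Mrps18a belong to the small subunit. Mrps18b (chromosome 17, 35910379 to 35916389) was at 56.4 and 25.2 TPM in control and 7.76 and 12 TPM in DMSO, a log2 fold change of -1.86 (SE 0.44, limma adjusted p = 0.0350), and 31.6% of its words are shared with other genes, mostly with the antisense gene Gm16279. The library kit did not mark the strand, so reads from the stretch these 2 genes share cannot be told apart. Mrps18c (chromosome 5, 100798627 to 100804471) was far lower in level, at 1.63 and 3.22 TPM against 2.81 and 2.81 TPM, with overlapping groups and a log2 fold change of 0.19 (SE 0.37, limma adjusted p = 0.719). Whether the paralogues differ in their response was not tested.

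Mrps36 is named for the small subunit but is known as a component of the 2-oxoglutarate dehydrogenase complex of the citric acid cycle (chromosome 13, 100735955 to 100744659). It was counted in the small subunit by name and left out of the small subunit as assembled. It was at 17.6 and 15.9 TPM in control and 10.2 and 6.11 TPM in DMSO, without overlap but not called (log2 fold change -0.99, SE 0.34, limma adjusted p = 0.0793), and 21% of its words are shared, with the pseudogene Mrps36-ps1 among others.

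A few genes were higher in both DMSO libraries than in both controls, though none passed the test as fitted here, without a replicate block. Among those averaging 5 TPM or more, the 5 with the largest difference were Mrps25, Mrps23, Mrps27, Mrpl24 and Mrpl48. With a replicate block these 5 were called higher, where 17.9% of all genes were. Mrps25 (chromosome 6, 92169525 to 92184033) was at 36.8 and 20.3 TPM in control and 87.9 and 46.6 TPM in DMSO, a log2 difference of 1.20 (SE 0.42, limma adjusted p = 0.0847). Of its words, 68.9% are shared, mostly with the overlapping nuclear receptor gene Nr2c2, listed at 48.3 and 35.2 TPM against 22.8 and 22.4 TPM, so its level is uncertain.

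Mrps23 (chromosome 11, 88204388 to 88211507) shares no words with other genes and was at 17.0 and 7.07 TPM in control and 31.8 and 21.5 TPM in DMSO, a log2 difference of 1.17 (SE 0.45, limma adjusted p = 0.101). Mrps27, an RNA-binding pentatricopeptide repeat protein (chromosome 13, 99344786 to 99415562), was at 5.23 and 3.77 TPM against 14.3 and 8.32 TPM, a log2 difference of 1.13 (SE 0.37, limma adjusted p = 0.0733). In both genes the lowest DMSO value was only moderately above the highest control value.

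Mrpl24, which has a bacterial homologue (chromosome 3, 87919506 to 87923672), was at 27.4 and 20.3 TPM in control and 61.8 and 42.2 TPM in DMSO, a log2 difference of 1.08 (SE 0.32, limma adjusted p = 0.0551), and 27.2% of its words are shared, mostly with the overlapping Rrnad1. Mrpl48 (chromosome 7, 100545751 to 100608301) was at 28.9 and 20.3 TPM against 61.6 and 42.8 TPM, a log2 difference of 1.05 (SE 0.32, limma adjusted p = 0.0612). The values of these 2 large subunit genes were alike in every library, with control 1 above control 2 and DMSO 1 above DMSO 2. Both came close to the threshold, and Mrpl24 was called higher under 7 and Mrpl48 under 5 of 10 alternative settings that used all 4 libraries.

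The summed level of each subunit was lower in both DMSO libraries. The 46 large subunit genes summed to 2699 and 2973 TPM in control and 1316 and 1457 TPM in DMSO, with means of 2836 ± 194 and 1386 ± 99.6 TPM (SD, n = 2 each), so that the DMSO sum was 0.489 of the control sum. The 29 small subunit genes summed to 1166 and 1291 TPM in control and 865 and 829 TPM in DMSO, with means of 1229 ± 88.7 and 847 ± 25.7 TPM (SD, n = 2 each), or 0.689 of the control sum. Neither subunit had overlapping sums.

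The ratio of the large to the small sum was 2.31 and 2.30 in control and 1.52 and 1.76 in DMSO. It was lower in both DMSO libraries, but 2 against 2 libraries cannot go below p = 0.333 in an exact two-sided permutation test, and that is the p obtained. By the median in place of the sum the order was the other way: the large minus the small median of log2(TPM + 1), over the 73 genes tested, was 0.0075 and 0.233 in control and 0.423 and 0.251 in DMSO, higher in both DMSO libraries, with the same exact p of 0.333. With each protein in the subunit where it is found in the assembled ribosome, the ratio of the sums was 2.2 and 2.31 against 1.39 and 1.62. In the cytosolic ribosomal proteins, the same ratio was 1.40 and 1.38 in control and 1.65 and 1.63 in DMSO, higher in both DMSO libraries, with the same exact p of 0.333.

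A few abundant genes weighed on the ratio. Mrpl34 held 10.4% and 10.3% of the large sum in control and 2.43% and 3.21% in DMSO. On the small side, Mrps21 held 8.14% and 11.6% of the sum in control and 16.5% and 13.5% in DMSO. Mrps33 held 8.17% and 10.2% against 19.1% and 12.6%. The share of Mrps7 went the other way, from 12.7% and 10.2% to 6.74% and 9.85%, and the shares of Mrpl40 and Mrpl51 stayed between 6.47% and 9.03%.

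Without Mrpl34 the ratio was 2.07 and 2.06 in control and 1.48 and 1.70 in DMSO. Without the 3 most abundant genes of each subunit it was 2.42 and 2.50 against 2.16 and 2.23, a smaller gap but still without overlap. In the large subunit, the sum over the 40 genes with a lower mean in DMSO decreased by 1543 TPM, and the sum over the other 6 was 93.3 TPM higher. In the small subunit, the sum over 21 genes decreased by 498 TPM, and the sum over the other 8 was 116 TPM higher.

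**Figure D3:**
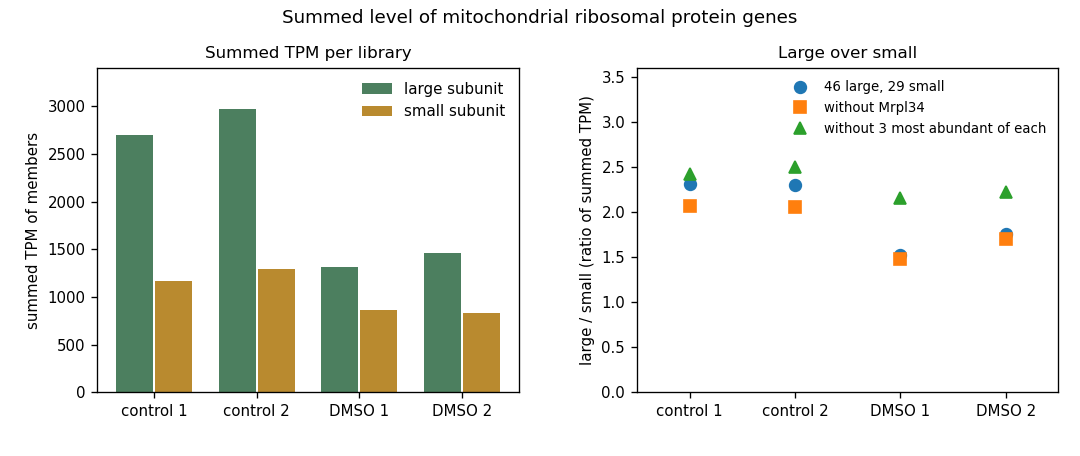
Left, summed TPM (y axis) of the 46 large and 29 small subunit genes in each library. Right, ratio of the large to the small sum (y axis) in each library, for every gene of the family in the table, without Mrpl34, and without the 3 most abundant genes of each subunit. The ratio of the full sums was 2.31 and 2.30 in control and 1.52 and 1.76 in DMSO.

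Genes were also counted by an assigned class, either with a bacterial homologue or mitochondrion-specific. Of 42 tested genes with a bacterial homologue, 18 were called lower, Mrpl23 included, with a median log2 fold change of -0.94. Of 31 genes classed as mitochondrion-specific, 14 were called lower, Mrps34 included, with a median of -0.99. This class held Mrps18a and Mrps18b, although their paralogue Mrps18c was in the other class. It also held Mrps36, so it is not strictly a class of descent or of proteins found only in this ribosome. Over all genes tested, the share called lower was 14.1%. The difference between these classes was not tested.

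Of the 5 subunits that carry other names, 1 was called lower (20%, near the 14.1% of all genes). Aurkaip1, a small subunit protein (chromosome 4, 155831272 to 155833130), was called lower, with 112.5 and 94.7 TPM in control and 36.5 and 50.6 TPM in DMSO (log2 fold change -1.24, SE 0.28, limma adjusted p = 0.0326). Gadd45gip1, of the large subunit, was at 29.6 and 41.3 TPM against 12.7 and 18.9 TPM, without overlap but not called (limma adjusted p = 0.0549), and 40.4% of its words are shared with other genes, so its level is uncertain. The small subunit proteins Dap3, a GTP-binding protein, and Chchd1 were each slightly higher in both DMSO libraries but not called.

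Dap3 was at 17.6 and 19.2 TPM in control and 30.6 and 21.6 TPM in DMSO (limma adjusted p = 0.278). Chchd1 was at 23.9 and 19.4 TPM against 26 and 28.1 TPM (limma adjusted p = 0.423). Ptcd3, a pentatricopeptide repeat protein of the small subunit, overlapped between groups, with 52.9 and 28.9 TPM against 39.9 and 29.7 TPM (limma adjusted p = 0.731). With these 5 genes added, and with Mrps30 and Mrps18a moved and Mrps36 left out, 22 of 49 large and 11 of 28 tested small subunit genes were called lower, against 14.1% of all genes, and the medians were -1.08 and -0.75.

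Factors that work with this ribosome were counted in the same way. Of 12 tested translation factors, 2 were called lower and 0 higher, with a median log2 fold change of -0.34, and the share called lower, 16.7%, was near the 14.1% of all genes. Tufm, the elongation factor that brings aminoacyl-tRNA to the ribosome, was at 20.9 and 43.8 TPM in control and 2.82 and 4.10 TPM in DMSO (log2 fold change -2.83, SE 0.42, limma adjusted p = 0.0181), although 58.2% of its words are shared, mostly with the pseudogene Gm9755. Mtif2, an initiation factor, was at 3.36 and 3.22 TPM against 0.597 and 1.08 TPM (log2 fold change -1.23, SE 0.34, limma adjusted p = 0.0492). It passed the filter only through the control group, and its call was kept under 5 of 9 alternative settings that used all 4 libraries.

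Of 25 tested assembly factors, 5 were called lower (20%, against 14.1% of all genes) and 0 higher, with a median of -0.50. They were Mrm3 and Mrm1, methyltransferases of the large mitochondrial ribosomal RNA, Rpusd3, of the pseudouridine synthase family, Ddx28, a helicase of large subunit assembly, and Rbfa, of small subunit assembly. Rpusd3 and Rbfa share 54.8% and 41.2% of their words with other genes. Mrm3 was at 16.3 and 19.5 TPM in control and 1.58 and 4.27 TPM in DMSO (log2 fold change -2.35, SE 0.42, limma adjusted p = 0.0221). Mrm1 was at 5.81 and 10.7 TPM against 0.590 and 1.18 TPM (log2 fold change -2.26, SE 0.41, limma adjusted p = 0.0221) and, like Mtif2, passed the filter only through the control group. Neither had overlapping groups.

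The 13 messenger RNAs of the mitochondrial genome, which this ribosome translates, were not called in either direction by limma without a replicate block, and 0 had an unadjusted p under 0.05. With a replicate block, 10 were called higher, where 17.9% of all genes were. All 13 had a log2 difference above 0, with a median of 0.53, and for 11 both DMSO libraries lay above both controls, against 31.1% of all genes. They summed to 82954 and 96781 TPM in control and 118298 and 173391 TPM in DMSO. Nuclear copies share most of the sequence of several of them. The ribosomal RNAs of the mitochondrial genome were not analysed here.

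For comparison, of the cytosolic ribosomal proteins, 26 of 50 tested large and 10 of 32 small subunit genes were called lower and 0 higher, with medians of -1.09 and -0.99, against 14.1% of all genes called lower and 6.42% higher. No test was made of a difference from the mitochondrial family.

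**Figure D4:**
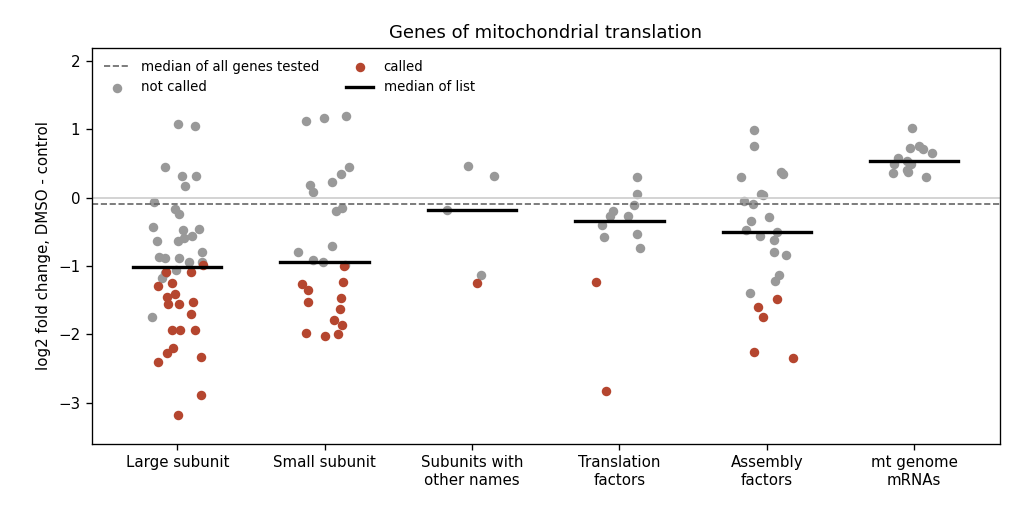
Log2 fold change, DMSO minus control on the log2(TPM + 1) scale (y axis), of each gene tested in the mitochondrial ribosome and related lists (x axis). Points are genes, red ones are called, thick lines are medians of the lists and the dashed line is the median of all genes tested, -0.09. The subunit medians lie at -1.02 and -0.94, and all 13 mitochondrial genome messenger RNAs lie above 0.

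The genes are scattered over 17 chromosomes, with the most, 11, on chromosome 11. Of the 75 genes, 18 (24.0%) have a protein-coding gene that starts on the other strand no more than 1000 bases upstream of their own start and points away from it (pairs that overlap at their starts were not counted), against 1152 of 10791 protein-coding genes tested (10.7%). Of these neighbours 16 were tested, and 3 were called lower, Psma2, Ska3 and Sars2, and 2 higher, Helq and Ptcd2, where 14.1% of all genes were called lower and 6.42% higher. These neighbours were chosen after their values were seen.

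The neighbour of Mrps12, Sars2, the mitochondrial seryl-tRNA synthetase, starts 172 bases away and was at 5.29 and 4.89 TPM in control and 1.78 and 1.45 TPM in DMSO. Mrps12 itself was at 33.2 and 35.3 TPM against 11 and 17.0 TPM and was also called lower. The neighbour of Mrps27, Ptcd2, starts 81 bases away and was called higher, at 3.42 and 2.82 TPM against 9.61 and 7.68 TPM, in the same direction as the values of Mrps27. The values of another pair went opposite ways: Ppp1r10, the neighbour of the lower Mrps18b, was at 33.7 and 27.3 TPM in control and 63.6 and 42.4 TPM in DMSO and was not called. Differences between members of a pair were not tested.

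RefSeq promoter windows on GRCm38.p6, from 250 bases before to 50 after the start, were found for 66 of the 75 genes and searched on both strands for 4 letter runs. Some genes have several starts, and a gene was counted where any of its windows held the run. The run CCGGAAG, the core bound by ETS factors, was in 24 of the 66 (36.4%), against 1746 of 8427 genes tested (20.7%). Counted by single window, it was in 26 of 75 windows of the 69 genes of the family with an entry (34.7%), against 8.86% of all 32851 windows. All windows include those of genes not tested here, so the 20.7% of genes tested is the closer background. The run was in 14 of 27 genes called lower (51.9%) and in 10 of 37 not called (27.0%). This difference was not tested, and no such split was made for all genes. The palindromic run of the factor NRF1 was in 2 (3.03%, against 2.37% of genes tested), that of YY1 in 5 (7.58%, against 1.92%), and GGGCGGG, of SP factors, in 29 (43.9%, against 49.6%). None of these runs contains another, and a match is a run of letters, not a known binding site.

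Windows of the 150 bases before the start are shown for 3 genes with the ETS run there and a single RefSeq start: those of the lowest log2 fold change in each subunit, Mrpl34 and Mrps22, and of the highest in the small subunit, Mrps27. They show that the run stands before genes called lower and before a gene with higher values in DMSO. They are given 5′ to 3′ on the strand of the gene, with the run or its reverse complement CTTCCGG in capitals. Mrpl34 is at chr8:71464776-71464925 on the plus strand, Mrps22 at chr9:98601680-98601829 on the minus strand and Mrps27 at chr13:99344636-99344785 on the plus strand.
Mrpl34: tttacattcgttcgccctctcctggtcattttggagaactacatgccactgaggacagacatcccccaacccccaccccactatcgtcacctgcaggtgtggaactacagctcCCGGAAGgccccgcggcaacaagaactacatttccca
Mrps22: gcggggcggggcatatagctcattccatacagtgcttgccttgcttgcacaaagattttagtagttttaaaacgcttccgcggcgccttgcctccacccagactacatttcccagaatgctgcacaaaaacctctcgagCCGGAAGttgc
Mrps27: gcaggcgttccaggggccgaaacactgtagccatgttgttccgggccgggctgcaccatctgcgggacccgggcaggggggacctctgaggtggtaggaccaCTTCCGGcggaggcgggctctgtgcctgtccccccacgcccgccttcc
Mrps22, called lower, was at 31 and 29.5 TPM in control and 10.6 and 6.07 TPM in DMSO, and the values of Mrpl34 and Mrps27 are given above. In Mrpl34 and Mrps22 the run is read forward as CCGGAAG, and in Mrps27 as its reverse complement. Both readings also occur among genes called lower, since Mrps26 and Mrps16 hold the reverse complement.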

How the data were processed

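RNA of 4 libraries of 2-cell embryos, made with the SMARTer low-input kit, was sequenced as 50-base reads. The authors matched reads to the Ensembl GRCm38 transcriptome with kallisto, summed transcripts per gene with tximport and deposited TPM values. The submitters' processing notes also name STAR, SAMtools, bedtools and mm10. TPM keeps no depth, so no counting error was derived, and no count test was run, although the authors used DESeq2 on estimated counts. All columns were used.

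Names and coordinates came from GENCODE M21, which named 29668 of 30049 identifiers. Genes averaging 1 TPM or more were fitted on log2(TPM + 1), a pseudocount of 1, with limma 3.58.1 in R 4.3.3 (lmFit, eBayes with trend, group only, Benjamini-Hochberg 0.05). Lists were described by counts and medians. Shared sequence was the share of 31-base words, on either strand, found in transcripts of other genes. Tested on simulated data for DMSO against control, with 200 of 12038 genes changed, limma called 40 of 100 genes with a log2 change of 2, 83 of 100 with a change of 3, and 9 unchanged genes; with no gene changed it called 0. The simulated noise was independent between genes and few genes were changed, whereas 2470 genes were called in the real libraries. The simulated figures therefore do not carry over to the real libraries. Python 3.11.15, pandas 2.3.3, numpy 2.4.6 and matplotlib 3.10.9 were also used.

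Named were the 5 lowest and 5 highest called genes averaging 5 TPM or more whose groups did not overlap, the 3 most abundant per subunit, members with a differing place or further role, up to 5 higher in both DMSO libraries, the 5 subunits with other names, and the 2 lowest and 2 highest called genes of each related list. Rules, members and lists were chosen with earlier results of these data known. The alternatives were another pseudocount, other filters, scalings and variance models, length and GC correction, a replicate block, other memberships and leaving out each library.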

Additional observations from a re-analysis of the deposited data

How the results depend on the processing

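The direction of both subunit medians was negative under every alternative run, and the large subunit genes with a value below 0 numbered 38 to 41 in the fits with all genes of the family. No gene was called with no filter on low values (0 large and 0 small subunit genes, 0 of 22257 genes, 5368 at an unadjusted limma p under 0.05, smallest adjusted p of the family 0.102). With 1 library left out, where the lone library of a group is assumed to vary like the other group, calls ran from 0 to 1883 over all genes, from 0 to 18 lower in the large and from 0 to 9 lower in the small subunit, the large median from -1.12 to -0.93, the small median from -1.06 to -0.92 and their difference from -0.175 to 0.0638. Large subunit genes called higher were 2 at a mean of at least 5 TPM (10.3% of all genes), 2 with median-ratio scaling (7.24%), 2 with quantile normalization (8.94%), 1 with TPM rescaled without the mitochondrial genome (7.28%) and 1 with length and GC correction (7.02%). Quantile normalization gave 13 large and 5 small subunit genes lower (9.31% of all genes), medians of -0.85 and -0.71, and a split of all calls of 1121 lower to 1076 higher, against 1697 to 773 without it; rescaling without the mitochondrial genome gave 1302 to 876 and a large median of -0.93. The large median was -1.10 with a pseudocount of 0.1 and -0.97 with median-ratio scaling. Without the mean-variance trend 14 large subunit genes were lower (11.6% of all genes). Counting subunits as assembled gave medians of -1.08 and -0.75 and a difference of -0.33. Without the members that share 20% or more of their words, 16 of 38 large and 10 of 22 tested small subunit genes were lower, against 14.1% of all genes. Of the 32 genes called lower, 26 were kept with the pseudocount of 0.1, 29 at 5 TPM, 24 without trend, 23 with median-ratio scaling, 18 with quantile normalization, 24 with rescaling, 30 with length and GC correction and 24 without DMSO 2. Same-numbered libraries deviated together (r = 0.35 across 12038 genes, which are not independent), but the numbers are shared by name only. With a replicate block, 5132 genes were called, 30 large and 16 small subunit genes lower (24.8% of all genes) and 2 large (Mrpl24 and Mrpl48) and 3 small (Mrps25, Mrps23 and Mrps27) higher (17.9% of all genes); with length and GC correction as well, 4947 genes, 30 and 16 lower, and 3 and 3 higher. Of the 13 messenger RNAs of the mitochondrial genome, the block called 10 higher, and 7 with the correction as well, where it called 17.1% of all genes higher. Of the assembly factors the block without the correction called 9 lower and 1 higher, against 24.8% and 17.9% of all genes. Among single genes, Ptcd3 was at 0.041 with quantile normalization; with a library left out it ran from -0.61 to 0.25, Mrps18c from -0.15 to 0.53, Mrps21 from -0.24 to 0.41 and Mrps33 from -0.10 to 0.55. The cause of these shifts was not tested. TPM gives no depth, so how far depth limits the low genes is unknown.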
